A study of Saccharomyces cerevisiae with 16 samples.

Results

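The 37 genes described here encode the yeast proteasome, its helpers and its transcriptional regulator. They comprise 7 genes of the 20S alpha ring, 7 of the 20S beta ring, 10 of the 19S base, 8 of the 19S lid, 4 for assembly factors and activators, and RPN4. They were chosen by function, though with earlier results of these data known. The list holds 32 subunit genes together with UMP1, RPN14, ECM29, BLM10 and RPN4. It leaves out the lid subunit gene SEM1, which is given with the further genes. Each has 1 probe set on the array, and all 37 were among the 5404 named genes tested. Transcript levels were measured on 16 Affymetrix Yeast Genome 2.0 arrays, 4 per group. All cells were wild-type BY4741, a haploid laboratory strain of mating type a, grown at 30 °C in rich medium with glucose and taken in the early exponential phase. The control group received no chemical. For 1 h the other groups were exposed to NEM at 0.016 mM, acrolein at 0.05 mM or H2O2 at 0.3 mM. H2O2 (hydrogen peroxide) is an oxidant and acrolein a small unsaturated aldehyde. The abbreviation NEM is not spelled out in the labels and was taken to mean N-ethylmaleimide, which alkylates thiols. The doses differ between compounds, so a difference between treatments belongs to these doses and does not rank the compounds. The labels do not say whether the arrays within a group are separate cultures, so p-values reflect the spread among these arrays alone, and that spread may be technical.

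The proteasome degrades proteins that carry ubiquitin chains. Its 20S core is a barrel of stacked rings, in which the outer alpha rings gate entry and the inner beta rings hold the proteolytic sites. The 19S particle caps the core: its base of ATPases unfolds substrates and pushes them into the barrel, and its lid removes the ubiquitin chain. In budding yeast the transcription factor Rpn4 binds a shared element in the promoters of most subunit genes, and Rpn4 is itself rapidly degraded by the proteasome, which forms a feedback loop.

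The values are log2 signals in which 1 unit is a doubling, and differences are between group means with the standard error (SE) of a limma fit over all 16 arrays. A gene was called where its limma p, adjusted by Benjamini-Hochberg over 5785 probe sets, was under 0.05. Members were bright: their control means ran from 12.38 to 14.85, against a highest value of 5.15 for probe sets of another yeast species. As a check of the strain, its deleted markers URA3 and MET17 had the minimum deposited value on 16 arrays and LEU2 on 15. HIS3, which this strain lacks only in part, read 11.06 to 12.27 and gave no check. Genes of mating type a read 10.78 to 13.50. MF(ALPHA)1 of the other mating type was at that minimum, within 0.01, but STE3 read 4.44 to 7.59. RNA quality set acrolein replicate 1 apart. Its mean over 7 ribosomal RNA probe sets was 15.48 (control arrays 8.75 to 11.55), and its 3′ signal exceeded its 5′ signal by 1.20, where the remaining 15 arrays gave 0.60 to 0.78. Replicates 1 and 4 of the H2O2 group had ribosomal RNA averages of 7.80 and 4.38, below all control arrays. Results that turn on these arrays are given with and without them.

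RPN4 rose after each treatment, by 0.73 ± 0.04 with acrolein, 0.71 ± 0.04 with NEM and 0.29 ± 0.04 with H2O2 (SE, 4 arrays per group). On the control arrays it read 13.85, 13.84, 13.84 and 13.84. On the acrolein arrays it read 14.48, 14.63, 14.54 and 14.61, and on the NEM arrays 14.58, 14.58, 14.52 and 14.54. The H2O2 arrays, at 14.14, 14.24, 14.08 and 14.06, lay between, and each treated group lay wholly above the control. The limma adjusted p was 3.53e-09 for acrolein, 3.9e-09 for NEM and 0.000145 for H2O2. In linear terms these are 1.65-fold, 1.64-fold and 1.22-fold. Acrolein and NEM arrays overlapped, with a difference of 0.01 and a 95% interval of -0.07 to 0.10 (limma adjusted p = 0.814). RPN4 was 0.44 ± 0.04 higher after acrolein than after H2O2 (adjusted p = 9.19e-07) and 0.42 ± 0.04 higher after NEM than after H2O2 (adjusted p = 1.02e-06), with no overlap of arrays in either comparison.

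**Figure D1:**
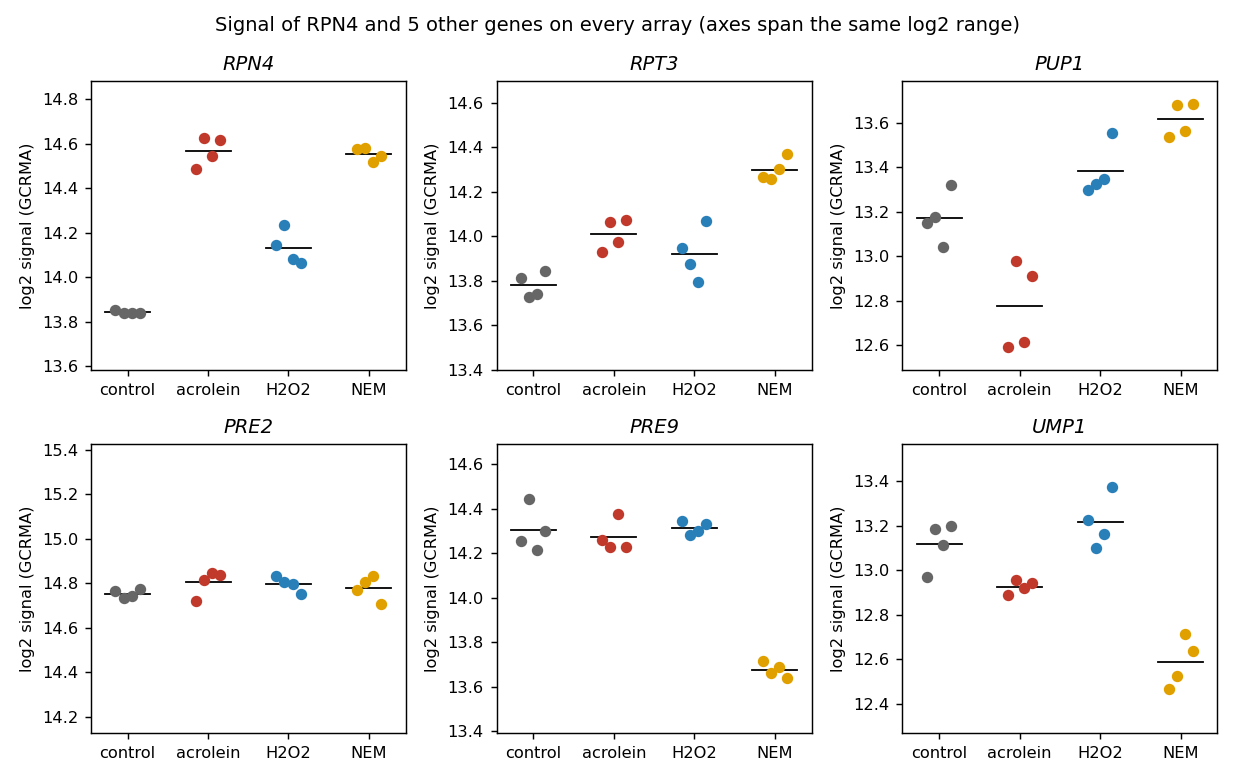
Signal of RPN4 and 5 other genes on every array, as deposited log2 (GCRMA) values on the vertical axes, which all span the same log2 range. Points are arrays and bars are means of 4. RPN4 is higher in each treated group than in the control, PRE2 overlaps in all groups, PUP1 is lower after acrolein and higher after NEM, and PRE9 is lower after NEM alone among these groups.

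The other members followed no common course across treatments. After NEM 25 of the 37 members, RPN4 included, rose and 4 fell, where 26.4% of all probe sets tested rose and 32.2% fell, and the members' median difference was 0.18 against -0.01 over all tested. After acrolein 5 rose and 9 fell, where 27.2% of all probe sets rose and 36.9% fell, and the median of the members, -0.05, was that of all tested. After quantile normalization the acrolein counts were 7 and 8. Without acrolein replicate 1 they were 7 and 7, so the excess of members that fell over those that rose was not kept. After H2O2 4 members rose and 1 fell, where 9.23% of all probe sets rose and 10.6% fell, with a member median of 0.07 against -0.02. The H2O2 shares of members called were 10.8% higher and 2.7% lower, and the number that rose was 2 without H2O2 replicate 2 and 6 without H2O2 replicate 3. These comparisons share the same 4 control arrays.

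By their calls against the control, the largest group comprised 15 members that rose after NEM alone: SCL1, PUP2, PRE5, PRE3, PUP3, RPT2, RPT4, RPN2, RPN7, RPN8, RPN9, RPN11, RPN12, ECM29 and BLM10. A further 4 members, PUP1, PRE1, PRE7 and RPN6, fell after acrolein and rose after NEM. Another 3 of the 37, RPN4, PRE8 and RPN1, rose after all 3 treatments. RPT3 and RPT6 rose after acrolein and NEM, and RPN10 after H2O2 and NEM. PRE6 and UMP1 fell after acrolein and NEM, RPN14 fell after H2O2 and NEM, and PRE9 fell after NEM. PRE10, RPT5 and RPN13 fell after acrolein alone. The remaining 5, PRE2, PRE4, RPT1, RPN3 and RPN5, were called in no comparison with the control, with differences from -0.13 to 0.11 and 95% intervals that reached from -0.25 to 0.27. The share of all probe sets with each pattern was not counted, so the sizes of these groups describe the members alone. A call in one treatment and none in another is not a test between them, and those tests follow the subcomplexes.

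**Figure D2:**
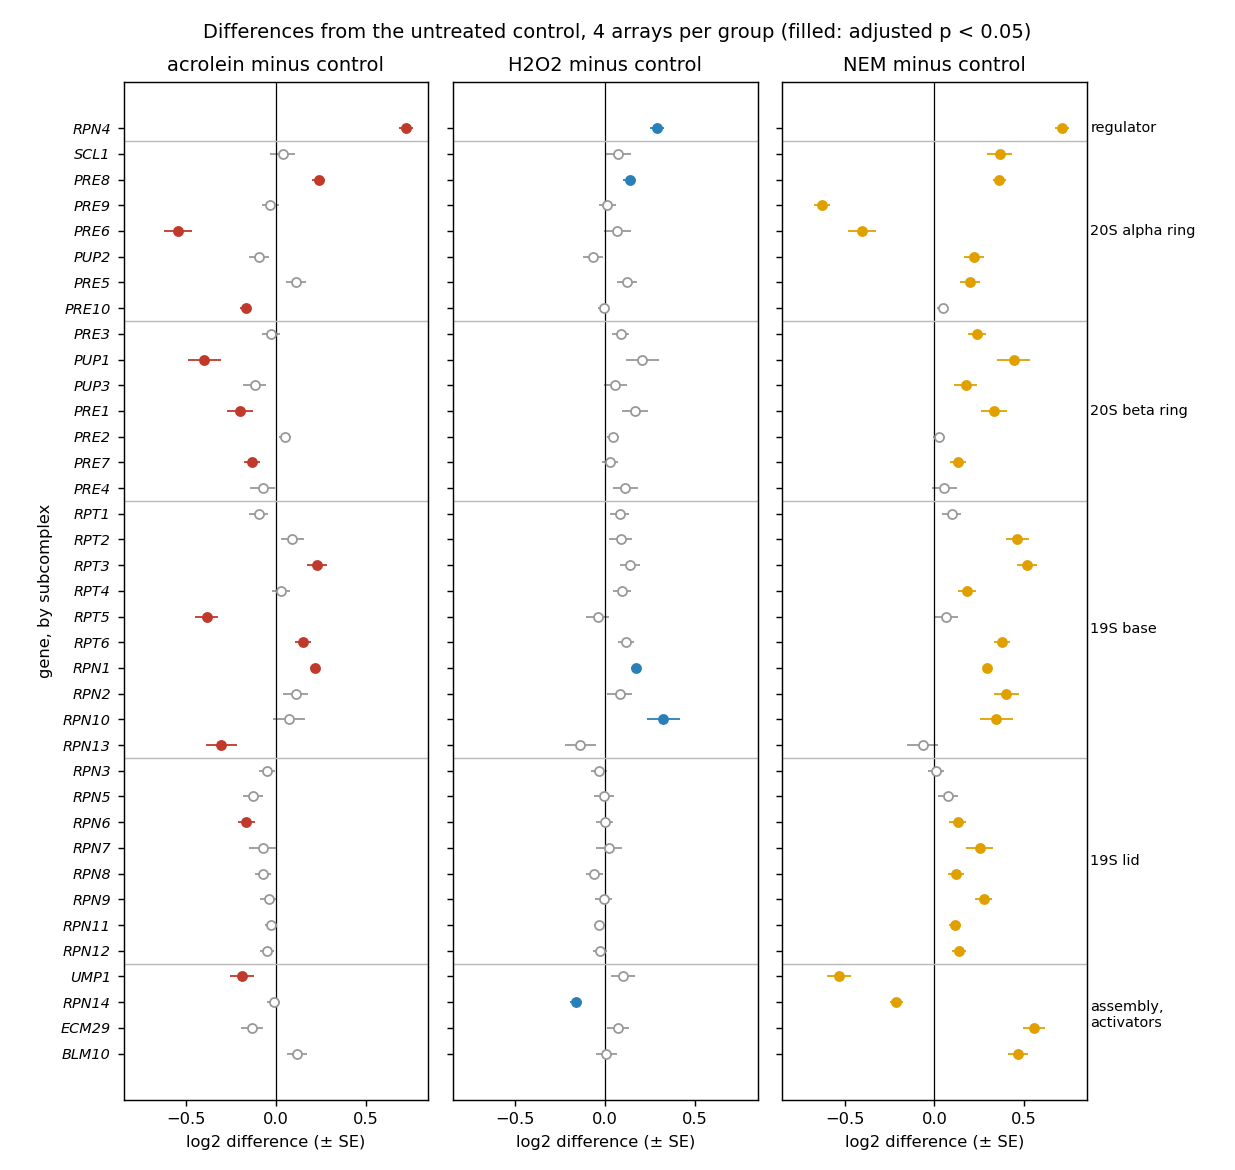
Differences of the 37 genes from the control on the log2 scale (horizontal axes), with SE bars, for acrolein, H2O2 and NEM, ordered by subcomplex. Filled points passed an adjusted p of 0.05. Most NEM points lie right of 0, acrolein points lie on both sides, and H2O2 points lie near 0, with RPN4 right of 0 in all panels.

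In the alpha ring, which forms the gate of the core, 4 of 7 genes rose and 2 fell after NEM, 1 rose and 2 fell after acrolein, and 1 rose after H2O2. Over all probe sets tested, 26.4% rose and 32.2% fell after NEM, 27.2% and 36.9% after acrolein, and 9.23% and 10.6% after H2O2. The acrolein shares of the alpha ring were 14.3% higher and 28.6% lower. With 7 genes these do not stand apart from the shares over all probe sets. PRE8 (subunit alpha2) rose in all treatments. It read 14.37, 14.35, 14.32 and 14.38 in the control and 14.52, 14.65, 14.54 and 14.66 after acrolein, a difference of 0.24 ± 0.04 (limma adjusted p = 6.54e-05). After NEM it read 14.67, 14.72, 14.76 and 14.70 (difference 0.36 ± 0.04, adjusted p = 1.46e-06). The H2O2 values of 14.49, 14.54, 14.48 and 14.45 gave a difference of 0.14 ± 0.04 (adjusted p = 0.0163). No treated PRE8 array reached down to the control arrays, although the H2O2 call was lost without H2O2 replicate 2 (adjusted p = 0.0543).

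PRE9 (alpha3), the one subunit of the core that yeast can live without, moved against most members. Its NEM arrays read 13.72, 13.66, 13.69 and 13.64, against 14.26, 14.44, 14.21 and 14.30 in the control, and every NEM array lay below every other array of the study. The NEM difference was -0.63 ± 0.05, the lowest of all members (limma adjusted p = 8.15e-08). Acrolein arrays, at 14.26, 14.23, 14.38 and 14.23, overlapped the control, with a difference of -0.03 ± 0.05 (adjusted p = 0.59).

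PRE6 (alpha4), whose protein can fill the place of alpha3 where PRE9 is deleted, fell after both acrolein and NEM. It read 14.11, 14.15, 14.16 and 14.14 in the control, 13.38, 13.84, 13.56 and 13.59 after acrolein, and 13.60, 13.82, 13.77 and 13.76 after NEM. Both treated groups lay below the control and overlapped each other. The acrolein difference, -0.55 ± 0.08, was the lowest of all members in that treatment (limma adjusted p = 3.37e-05), and the NEM difference was -0.40 ± 0.08 (adjusted p = 0.000474). H2O2 arrays read 14.25, 14.16, 14.26 and 14.16, with a difference of 0.07 ± 0.08 that was not called (adjusted p = 0.589).

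The other alpha genes rose after NEM or changed little. SCL1 (alpha1) read 14.36, 14.41, 14.38 and 14.45 in the control and 14.75, 14.79, 14.79 and 14.73 after NEM, with no overlap and the highest NEM difference of the ring, 0.36 ± 0.07. Its acrolein difference of 0.04 ± 0.07 was not called. PUP2 (alpha5) and PRE5 (alpha6) rose by 0.22 ± 0.06 and 0.20 ± 0.06 after NEM. PRE10 (alpha7) fell by 0.17 ± 0.03 after acrolein, where its arrays read 14.64 to 14.73 against 14.83 to 14.91 in the control, and differed by 0.05 ± 0.03 after NEM, which was not called.

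In the beta ring 5 of 7 genes rose after NEM and none fell, 3 fell and none rose after acrolein, and none was called after H2O2. The share higher after NEM was 71.4%, against 26.4% of all probe sets. After acrolein 42.9% were lower, against 36.9% of all probe sets, and none higher, against 27.2%. All 7 had positive H2O2 differences that were not called, from 0.03 (PRE7) to 0.21 (PUP1). Without H2O2 replicates 1 and 4 the PRE4 difference was -0.0128. The share of all probe sets with a positive H2O2 difference was not counted. Their median was -0.02, and 9.23% were called higher and 10.6% lower. PUP1 (beta2), which carries the trypsin-like site, varied most. It read 13.15, 13.18, 13.04 and 13.32 in the control, 12.59, 12.98, 12.62 and 12.91 after acrolein, and 13.54, 13.68, 13.56 and 13.68 after NEM. Every acrolein array lay below and every NEM array above the control. The differences were -0.40 ± 0.09 (limma adjusted p = 0.00194) and 0.44 ± 0.09 (adjusted p = 0.00102). The H2O2 arrays, at 13.30, 13.32, 13.35 and 13.55, overlapped the control (0.21 ± 0.09, adjusted p = 0.133).

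PRE2 (beta5), which carries the chymotrypsin-like site, was called in no comparison on the deposited values of all 16 arrays. It read 14.77, 14.73, 14.74 and 14.77 in the control, 14.72, 14.81, 14.85 and 14.84 after acrolein, 14.84, 14.81, 14.80 and 14.75 after H2O2, and 14.77, 14.81, 14.83 and 14.71 after NEM. All groups overlapped, and the 95% interval of its NEM difference was -0.05 to 0.10. Without acrolein replicate 1, the only acrolein array below the control arrays, and NEM replicate 4, the acrolein difference was 0.08 and was called (adjusted p = 0.0159). With quantile normalization and all arrays kept, the acrolein difference was 0.09 and was also called (limma adjusted p = 0.0176). PRE3 (beta1), with the caspase-like site, rose by 0.24 ± 0.05 after NEM and differed by -0.03 ± 0.05 after acrolein.

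Of the beta subunits without a catalytic site, PRE1 (beta4) read 13.98, 14.15, 13.96 and 14.07 in the control, 13.62, 13.97, 13.84 and 13.92 after acrolein and 14.32, 14.49, 14.34 and 14.33 after NEM. Its NEM arrays lay above all control arrays (0.33 ± 0.07), while acrolein replicate 2 reached the control range (-0.20 ± 0.07). PRE7 (beta6) differed by -0.13 ± 0.04 after acrolein and 0.13 ± 0.04 after NEM, and PUP3 (beta3) rose by 0.18 ± 0.06 after NEM. Several of these calls depended on single arrays. The acrolein calls of PRE1 and PRE7 were each lost without control replicate 2, control replicate 4 or acrolein replicate 1 (adjusted p = 0.0552 to 0.0845). Under NEM the PUP3 call was lost in 6 of 8 fits that left out 1 array, and that of PRE7 in 3 of 8. PRE4 (beta7) was called in no comparison with the control.

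The mean of the 7 beta genes, taken per array as the deviation from each gene's control mean, ran from -0.24 to -0.05 after acrolein, from -0.05 to 0.07 in the control, from 0.06 to 0.16 after H2O2 and from 0.15 to 0.26 after NEM. The lowest acrolein array was replicate 1, the array with the highest ribosomal RNA and 3′ signal, and its part in the acrolein calls was not tested beyond the fits without it. Alpha ring means overlapped between the control and NEM, at -0.02 to 0.03 and -0.003 to 0.06: PRE9 and PRE6 fell after NEM where 4 other genes of the ring rose.

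**Figure D3:**
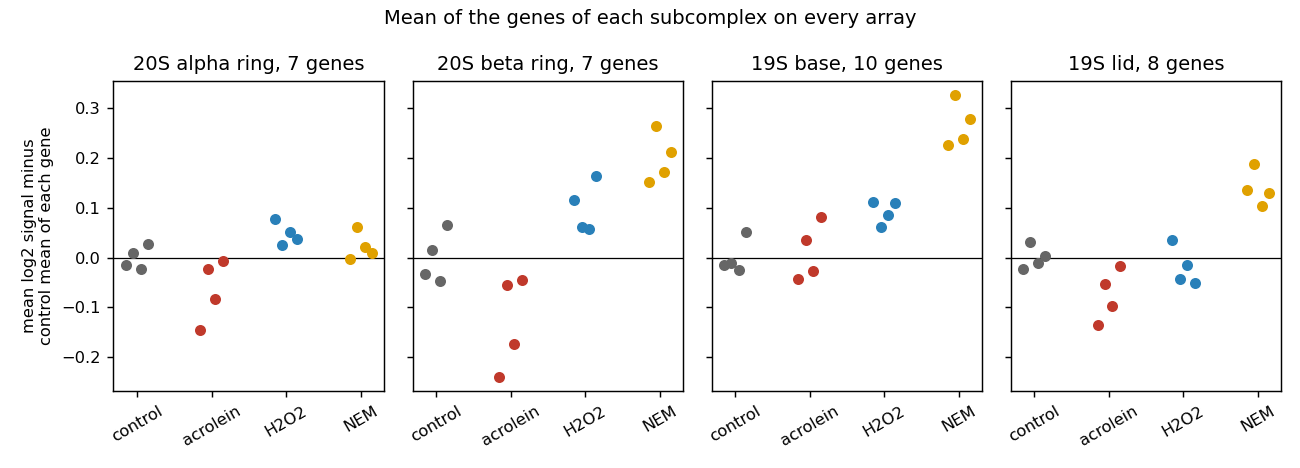
Mean deviation of the genes of each subcomplex from their control means on every array (log2, vertical axis), for the alpha ring, beta ring, base and lid. Each point is 1 array. NEM arrays lie above the control in the beta ring, base and lid, and overlap it in the alpha ring.

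In the 19S base, which holds the ATPase ring and the main ubiquitin receptors, 7 of 10 genes rose after NEM and none fell, 3 rose and 2 fell after acrolein, and 2 rose after H2O2. Shares higher were 70% after NEM, 30% after acrolein and 20% after H2O2, against 26.4%, 27.2% and 9.23% of all probe sets. After acrolein 20% were lower, against 36.9%. The ATPase genes did not move as a unit. RPT3 read 13.82, 13.73, 13.74 and 13.85 in the control, 13.93, 14.06, 13.97 and 14.07 after acrolein and 14.27, 14.26, 14.30 and 14.37 after NEM. The 3 groups were stacked with no overlap, with differences from the control of 0.23 ± 0.06 (limma adjusted p = 0.00255) and 0.52 ± 0.06 (adjusted p = 2.96e-06). H2O2 arrays of RPT3 ran from 13.80 to 14.07 and overlapped the control (0.14 ± 0.06, adjusted p = 0.0927).

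RPT5, another ATPase of the same ring, went the other way after acrolein. Its acrolein arrays read 12.92, 13.16, 13.13 and 13.15, all below the control arrays at 13.44, 13.43, 13.53 and 13.52 (difference -0.39 ± 0.06, adjusted p = 0.000147). NEM arrays, at 13.45, 13.65, 13.49 and 13.59, overlapped the control (0.07 ± 0.06, adjusted p = 0.405). The remaining ATPases were higher after NEM or not called: RPT2 rose by 0.46 ± 0.06, RPT6 by 0.38 ± 0.04 and RPT4 by 0.18 ± 0.05, while RPT1 differed by 0.10 ± 0.05. After acrolein RPT6 rose by 0.15 ± 0.04.

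RPN1, a scaffold of the base that also binds ubiquitin and shuttle proteins, rose after all treatments and had the smallest spread within groups of all members (pooled SD 0.03). It read 14.26, 14.25, 14.26 and 14.27 in the control, 14.46, 14.46, 14.45 and 14.53 after acrolein, 14.45, 14.41, 14.44 and 14.43 after H2O2 and 14.58, 14.59, 14.49 and 14.56 after NEM. Every treated array lay above every control array. The differences were 0.22 ± 0.03, 0.17 ± 0.03 and 0.30 ± 0.03, with limma adjusted p of 1.02e-05, 0.000434 and 5.4e-07. RPN2, the other large scaffold, rose by 0.40 ± 0.07 after NEM.

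The dedicated ubiquitin receptors of the base differed from each other. RPN10 read 13.40, 13.32, 13.21 and 13.55 in the control, 13.63, 13.71, 13.52 and 13.92 after H2O2 and 13.58, 13.72, 13.66 and 13.91 after NEM. Its NEM arrays lay above the control (0.35 ± 0.09, adjusted p = 0.0053), while H2O2 replicate 3 fell within the control range. The H2O2 difference, 0.33 ± 0.09 (adjusted p = 0.0236), was the largest of all members in that treatment, but the call was lost without any 1 of control replicates 2 and 3 and H2O2 replicates 2 and 4, and without H2O2 replicates 1 and 4 together (adjusted p = 0.142). Acrolein arrays of RPN10 read 13.41 to 13.50 (0.07 ± 0.09, not called).

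RPN13 read 14.13, 14.20, 14.29 and 14.18 in the control and 13.78, 13.94, 13.84 and 14.03 after acrolein, with every acrolein array below the control (-0.30 ± 0.09, adjusted p = 0.0075). After NEM it read 14.15, 14.31, 14.06 and 14.02 and overlapped the control (-0.07 ± 0.09), and after H2O2 14.15, 14.05, 14.22 and 13.83 (-0.14 ± 0.09). Neither of those passed the test.

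The lid, which holds the deubiquitinase Rpn11, had 6 of 8 genes that rose after NEM and none that fell. Of all probe sets tested, 26.4% rose and 32.2% fell after NEM, and 9.23% and 10.6% after H2O2. The median NEM difference of the lid was 0.13, against 0.32 in the base, 0.20 in the alpha ring and 0.18 in the beta ring. Mean NEM differences were 0.14 in the lid, 0.27 in the base, 0.02 in the alpha ring and 0.20 in the beta ring. The order of lid and alpha ring thus depended on the summary used. After acrolein 1 fell and none rose, and after H2O2 none was called, with differences from -0.06 (RPN8) to 0.02. The lid subunit gene SEM1, not among these 8, fell after acrolein (-0.51 ± 0.07) and H2O2 (-0.27 ± 0.07). The share of these 8 lower after acrolein was 12.5%, against 36.9% of all probe sets, and none was higher, against 27.2%. RPN9, a lid scaffold gene, had the highest NEM difference: it read 14.32, 14.33, 14.27 and 14.28 in the control and 14.64, 14.65, 14.52 and 14.48 after NEM, with no overlap (0.27 ± 0.05, limma adjusted p = 0.000242). RPN11 itself read 14.16, 14.23, 14.23 and 14.22 in the control and 14.30, 14.40, 14.29 and 14.31 after NEM. Those groups did not overlap either, with a difference of 0.12 ± 0.03 (adjusted p = 0.00744).

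Other lid genes changed by similar or smaller amounts. RPN7 rose by 0.25 ± 0.07, RPN12 by 0.14 ± 0.04 and RPN8, the partner of Rpn11, by 0.12 ± 0.05 after NEM. RPN6, which clamps the lid to the core, read 14.31, 14.44, 14.25 and 14.35 in the control, 14.13, 14.16, 14.15 and 14.25 after acrolein and 14.42, 14.52, 14.43 and 14.50 after NEM. Acrolein arrays lay below the control (-0.17 ± 0.05, limma adjusted p = 0.00719), but the groups nearly touched. The highest acrolein array read 14.2465 and the lowest control array 14.2484. NEM arrays overlapped the upper end of the control (0.13 ± 0.05, adjusted p = 0.0293). The NEM calls of RPN6 and RPN8 were lost in 4 and 5 of 8 fits that left out 1 array. RPN3 and RPN5 were not called, with NEM differences of 0.01 ± 0.05 and 0.08 ± 0.06.

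Among the 4 assembly factors and activators, 2 rose and 2 fell after NEM, where 26.4% of all probe sets rose and 32.2% fell. UMP1, which encodes a chaperone that is enclosed in the maturing core and degraded there, read 12.97, 13.19, 13.11 and 13.20 in the control, 12.89, 12.95, 12.92 and 12.94 after acrolein, and 12.46, 12.53, 12.72 and 12.64 after NEM. Its NEM arrays lay below all others, and acrolein arrays lay just below the control. The NEM difference was -0.53 ± 0.07 (adjusted p = 1.62e-05). The acrolein difference of -0.19 ± 0.07 (adjusted p = 0.0252) lost its call without control replicate 2, control replicate 4 or acrolein replicate 1. The H2O2 difference of 0.10 ± 0.07 was not called.

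RPN14, a chaperone that helps to assemble the ATPase ring, read 12.91, 13.00, 12.92 and 12.89 in the control, 12.77, 12.80, 12.72 and 12.78 after H2O2 and 12.67, 12.75, 12.65 and 12.80 after NEM. Both groups lay below the control, with differences of -0.16 ± 0.04 (adjusted p = 0.00648) and -0.21 ± 0.04 (adjusted p = 0.00021). It was the only member that fell after H2O2 in this fit.

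ECM29 and BLM10 encode proteins that bind the assembled particle, ECM29 as a tether between core and cap and BLM10 as an alternative cap. ECM29 read 12.32, 12.41, 12.45 and 12.34 in the control and 12.83, 13.03, 12.86 and 13.03 after NEM, the highest NEM difference after RPN4 (0.56 ± 0.06, adjusted p = 4.85e-06). Its acrolein arrays read 12.40, 12.22, 12.13 and 12.25. The acrolein difference of -0.13 ± 0.06 was not called (adjusted p = 0.0804), but it was called at -0.18 (adjusted p = 0.0142) without acrolein replicate 1, the highest of these 4, and NEM replicate 4.

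BLM10 read 12.60, 12.51, 12.66 and 12.62 in the control and 12.99, 13.10, 13.05 and 13.11 after NEM, with no overlap (0.47 ± 0.06, adjusted p = 9.53e-06). Acrolein replicate 1 read 12.91 while the other acrolein arrays read 12.63 to 12.66, and the acrolein difference of 0.12 ± 0.06 was not called.

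Acrolein and NEM arrays were also compared with each other, without the control. Of the 37 members 28 were lower after acrolein than after NEM and 3 were higher, where 25.8% of all probe sets tested were lower and 24.1% higher, with a member median of -0.23 against 0.00 over all tested. All 10 base genes, 7 of 8 lid genes, 5 of 7 beta and 4 of 7 alpha genes were lower after acrolein. Among the members lower after acrolein, the widest gaps were in PUP1 (-0.84 ± 0.09, limma adjusted p = 1.18e-05), ECM29 (-0.69 ± 0.06, adjusted p = 2.47e-06), PRE1 (-0.53 ± 0.07, adjusted p = 7.32e-05) and RPT5 (-0.45 ± 0.06, adjusted p = 9.53e-05). PRE9 (0.60 ± 0.05), UMP1 (0.34 ± 0.07) and RPN14 (0.20 ± 0.04) were higher after acrolein than after NEM. These 3 are also genes that fell after NEM.

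The 6 members not called between acrolein and NEM were RPN4, PRE6, PRE5, PRE2, PRE4 and RPN3. The interval for PRE6 was -0.31 to 0.02 and that for PRE2 -0.05 to 0.10, so these data do not show that the treatments acted alike on them. Without acrolein replicate 1 and NEM replicate 4, 23 members were lower and 3 higher. Calls for RPT4, RPN1, RPN10 and RPN13 were each lost in some fits that left out 1 array, and the RPN1 call in 6 of 8.

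**Figure D4:**
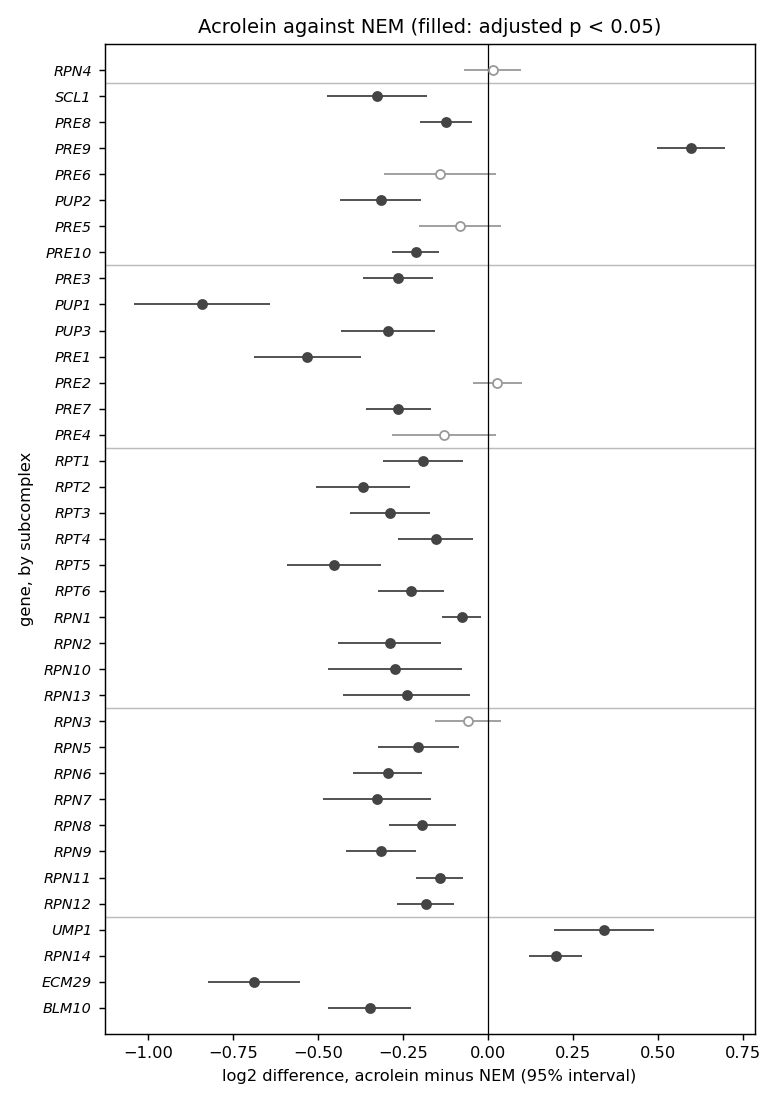
Acrolein minus NEM for each of the 37 genes on the log2 scale (horizontal axis), with 95% intervals. Filled points passed an adjusted p of 0.05. The interval of RPN4 spans 0, PRE9, UMP1 and RPN14 lie to the right, and 28 genes lie to the left.

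NEM arrays were higher than H2O2 arrays for 19 members and lower for 3, where 25.1% of all probe sets were higher and 27.2% lower. ECM29 (0.49 ± 0.06), BLM10 (0.46 ± 0.06) and RPN4 (0.42 ± 0.04) were the highest, and PRE9 (-0.64 ± 0.05), UMP1 (-0.63 ± 0.07) and PRE6 (-0.47 ± 0.08) the lower ones. Acrolein arrays were higher than H2O2 arrays for 3 members, RPN4, RPN14 and PRE8, and lower for 13, where 25.9% of all probe sets were higher and 29.9% lower. PRE6 (-0.61 ± 0.08), PUP1 (-0.61 ± 0.09), PRE1 (-0.37 ± 0.07) and RPT5 (-0.35 ± 0.06) had the lowest differences. The PRE8 call in this comparison (0.10 ± 0.04) was lost in 5 of 8 fits that left out 1 array. With quantile normalization 5 members were higher and 9 lower after acrolein, and without H2O2 replicates 1 and 4, 7 were lower.

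A set of 35 further genes of the same pathway was read from the same fit. Among 14 other subunits, assembly chaperones and bound proteins, 6 rose and 6 fell after NEM, 3 rose and 6 fell after acrolein, and 1 fell after H2O2. Over all probe sets tested, 26.4% rose and 32.2% fell after NEM and 27.2% and 36.9% after acrolein, and the acrolein shares of this list, 21.4% and 42.9%, were near those. NAS6, a chaperone of base assembly like RPN14, had the widest change: it read 13.47, 13.72, 13.70 and 13.57 in the control, 12.69, 12.95, 12.83 and 12.83 after acrolein, and 11.90, 11.75, 11.81 and 11.60 after NEM. The groups did not overlap, and NEM was the lowest (acrolein -0.79 ± 0.08, limma adjusted p = 2.51e-06, NEM -1.85 ± 0.08, adjusted p = 5.01e-10). The base chaperones HSM3 and TMA17 also fell after NEM (-0.37 ± 0.07 and -0.67 ± 0.07) and after acrolein (-0.33 ± 0.07 and -0.52 ± 0.07). The NEM difference of NAS2 (0.03 ± 0.06) was not called.

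Chaperones of the alpha ring took the other direction in most cases. PBA1 (0.53 ± 0.10), ADD66 (0.43 ± 0.05) and POC4 (0.43 ± 0.09) rose after NEM and IRC25 fell (-0.25 ± 0.07). ADD66 and POC4 each rose by 0.45 after acrolein as well. SEM1, a small lid subunit, fell by 0.51 ± 0.07 after acrolein and by 0.27 ± 0.07 after H2O2. The proteasome-bound ubiquitin ligase gene HUL5 rose by 0.68 ± 0.08 after NEM. SPG5 and FUB1, for proteins that bind the proteasome, fell after acrolein by 0.52 ± 0.07 and 0.54 ± 0.06. Both also fell after NEM (-0.33 ± 0.07 and -0.34 ± 0.06).

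Ubiquitin ligase components that mark Rpn4 for degradation are encoded by UBR2, MUB1 and RAD6. MUB1 read 10.11 to 10.83 in the control and 11.22 to 11.92 after NEM, with no overlap (1.02 ± 0.19). RAD6 rose after NEM (0.39 ± 0.08) and acrolein (0.53 ± 0.08), and UBR2 fell after acrolein (-0.70 ± 0.18). Transcription factors known to bind the RPN4 promoter, YAP1, HSF1, PDR1 and PDR3, all rose after NEM, by 0.91 ± 0.16, 0.78 ± 0.14, 0.91 ± 0.10 and 0.71 ± 0.08. Among all probe sets tested, 26.4% rose and 32.2% fell after NEM. The shares were 27.2% and 36.9% after acrolein, and 9.23% and 10.6% after H2O2. After H2O2 YAP1 rose (0.86 ± 0.16), and after acrolein PDR1 rose (0.26 ± 0.10), a call lost in 4 of 8 fits that left out 1 array. YAP1 and HSF1 after acrolein, at 0.08 ± 0.16 and -0.12 ± 0.14, were not called. Each of the 4 was lower after acrolein than after NEM, by 0.65 (PDR1) to 0.90 (HSF1), where 25.8% of all probe sets were lower. These are transcript levels and not activities of the factors, and a relation to the level of RPN4 was not tested.

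Of 8 genes for the Cdc48 unfolding complex and ubiquitin shuttles, 6 rose after NEM, among them DSK2 (0.70 ± 0.16), UFD2 (0.65 ± 0.06) and UFD1 (0.52 ± 0.09), and none fell. After acrolein 2 rose and 3 fell, and after H2O2 none was called. Those acrolein shares, 25% and 37.5%, were near the 27.2% and 36.9% of all probe sets tested. After NEM 75% of this list rose, where 26.4% of all probe sets rose and 32.2% fell. After H2O2 9.23% of all probe sets rose and 10.6% fell. In the list of 6 genes for ubiquitin itself, its activation and recycling, 2 rose after NEM, 1 rose and 2 fell after acrolein, and 1 rose after H2O2. The shares higher were 33.3% after NEM and 16.7% after acrolein and after H2O2, and 33.3% were lower after acrolein. With 6 genes these do not stand apart from the shares over all probe sets. DOA4, which recovers ubiquitin from substrates, rose after all treatments, by 1.15 ± 0.08, 0.82 ± 0.08 and 0.98 ± 0.08 for acrolein, H2O2 and NEM.

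**Figure D5:**
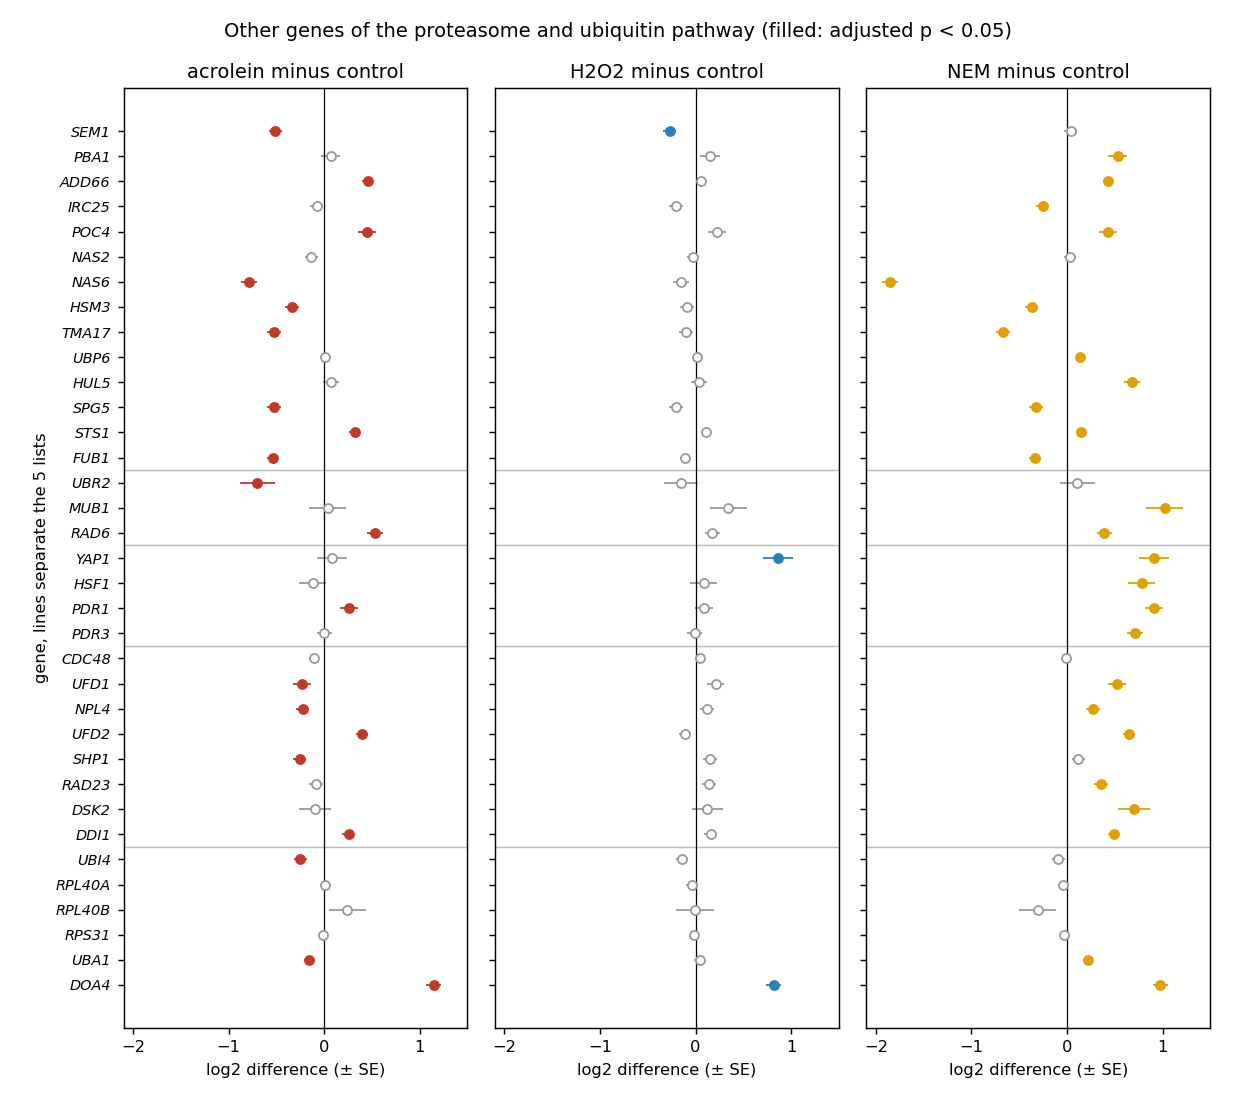
Differences of 35 further pathway genes from the control on the log2 scale (horizontal axes), with SE bars, in 5 lists set apart by lines. Filled points passed an adjusted p of 0.05. NAS6 lies furthest left after NEM, DOA4 lies right of 0 in all panels, and YAP1, HSF1, PDR1 and PDR3 are filled together after NEM.

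RPN4 and the structural genes had different profiles over the 16 arrays. The correlation (Pearson's r) of RPN4 with the mean of the 32 structural genes was 0.22, and with single members it ran from -0.81 (PRE6) to 0.916 (PRE8). RPN1 (0.895) and RPT3 (0.778) were also close to RPN4. PRE1 (0.944), PRE3 (0.94) and PUP3 (0.929) were the closest to the mean of the other structural genes, while PRE2 (0.043) and PRE6 (0.038) had values near 0 and PRE9 a negative one (-0.8). Outside the members, the genes most like the structural mean were RAD52 (0.973), PST2 (0.953), APD1, UFD1, AFG3, PIM1, TAO3 and KIP1 (0.925). Those most like RPN4 were VID27 (0.988), FRM2 (0.988), SLM5, MMT1, SET1, TDA7, TRP2 and CIS1 (0.982). These values describe 16 arrays in 4 groups and share each array's processing.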

How the data were processed

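The values are deposited log2 signals that the authors made with GCRMA (background correction, normalization and summary of probe signals), per the submitters' processing notes, and its version and settings are not given in the sources used here. They were used without further scaling. Array medians ran from 11.85 to 11.92. Of 10928 probe sets, 166 controls and 1747 for another yeast species were left out, as were 49 dimmer duplicates of a named gene. Probe sets constant on all arrays were also left out, a departure from the plan. This removed 45 of 5449 named genes and no member, but most of the probe sets it removed had no gene name. The Benjamini-Hochberg adjustment and the shares over all probe sets rest on the 5785 that remained. Their values without this filter were not computed. The 5785 tested probe sets were fitted together in limma 3.58.1 (R 4.3.3) with a mean per group, 12 residual degrees of freedom, two-sided tests and Benjamini-Hochberg adjustment within a comparison. The code was tested on simulated data. Figures were drawn in Python 3.11.15 with matplotlib 3.10.9.

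The members and the lists of further genes were chosen with earlier results of these data known. Members were named throughout, with array values for RPN4, the highest and lowest gene of each subcomplex, genes that went against most others, and genes that were not called, as far as the text holds them. Further genes were named where called with a difference of at least 0.5 or where they regulate RPN4, and some chaperones beyond this rule were chosen after their values were seen. Correlations name the 8 closest genes outside the members.

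Arrays with the same replicate number had residuals that correlated between acrolein and control (0.20 to 0.45), NEM and control (0.32 to 0.56) and acrolein and NEM (0.32 to 0.45), so the numbers pair these arrays. With H2O2, replicates 3 and 4 correlated with the other groups (0.39 to 0.69) but replicates 1 and 2 did not (-0.36 to -0.05). The H2O2 numbers therefore do not pair all of its arrays. Precision is limited by having 4 arrays in each group. Alternatives covered the groups fitted, a replicate block, normalization, the variance prior, array weights, a dim filter, averaged probe sets, stricter thresholds and arrays left out. The fit without H2O2 replicates 1 and 4 was added after seeing the data.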

Additional observations from a re-analysis of the deposited data

Results flagged for a closer look

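Each gene's 4 arrays of a group were checked for 1 array far from the other 3, by Dixon's ratio at its 95% critical value. Of 148 sets of gene and group 11 stood out, where chance gives about 1 in 20. The acrolein array with the highest ribosomal RNA signal, replicate 1, accounts for 2 of them: RPT5 read 12.92 there against 13.13 to 13.16 on the other acrolein arrays, and BLM10 read 12.91 against 12.63 to 12.66. BLM10 was also higher on H2O2 replicate 1, at 12.64 against 12.59 to 12.60. On acrolein replicate 4 RPN1 read 14.53 against 14.45 to 14.46.

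In the NEM group PRE5 was low on replicate 3, at 13.94 against 14.03 to 14.04, and so was RPN2, at 14.42 against 14.57 to 14.59. PRE1 was high on NEM replicate 2, at 14.49 against 14.32 to 14.34, and RPN3 on NEM replicate 4, at 14.20 against 14.13 to 14.14. RPN6 was low on H2O2 replicate 3, at 14.22 against 14.36 to 14.39. In the control RPT1 was high on replicate 4, at 14.93 against 14.81 to 14.82, and RPN4 on replicate 1, at 13.85 against 13.84, a gap far below its treatment differences.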

How the results depend on the processing

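With the replicate block the counts of members called against the control and between acrolein and NEM were the same as without it for acrolein (5 higher, 9 lower), NEM (25 and 4) and acrolein against NEM (3 and 28), and the block changed no other call there. For H2O2, where residuals correlated for replicates 3 and 4 but not 1 and 2, 7 members rose with the block and 4 without it. A further limit of 1.5-fold left 1 higher and 0 lower after acrolein, 0 and 0 after H2O2, 1 and 1 after NEM, 0 and 2 for acrolein against H2O2, 1 and 2 for acrolein against NEM and 0 and 2 for NEM against H2O2. At an adjusted p under 0.01, 2 members rose after H2O2 and 8 were lower for acrolein against H2O2. Without H2O2 replicates 1 and 4 that last count was 7, and with quantile normalization 5 were higher. With 1 array left out in turn, 2 to 6 members rose after H2O2.

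Calls held whichever 1 array was left out for 11 of 14 members after acrolein, 3 of 5 after H2O2, 25 of 29 after NEM, 12 of 16 for acrolein against H2O2, 27 of 31 for acrolein against NEM and 18 of 22 for NEM against H2O2. No called member changed direction under the alternatives run. Differences that were not called changed sign near 0. With 1 array left out, RPN4 ran from -0.0059 to 0.0408 for acrolein against NEM, SCL1 from -0.004 to 0.0766 and PRE9 from -0.0654 to 0.016 after acrolein, YAP1 from -0.036 to 0.2345 after acrolein, RPN3 from -0.0649 to 0.0195 and RPN5 from -0.0335 to 0.0243 after H2O2, and RPN3 from -0.0065 to 0.0341 after NEM. Without H2O2 replicates 1 and 4, PRE4 was -0.0128, RPN3 0.0218 and RPN5 0.0021 after H2O2, and array weights gave 0.0113 for RPN5. Without acrolein replicate 1 and NEM replicate 4, RPN3 was -0.0065 after NEM. The cause of these shifts was not tested. The planned count of promoter motifs was not run, since promoter sequence was not analysed here.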
